A study of Homo sapiens with 26 samples.

Results

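The NRF2 antioxidant response was followed through 9 genes of the 41078 in the deposited table, chosen by symbol and not by their level: NFE2L2, KEAP1, NQO1, GCLC, GCLM, SLC7A11, HMOX1, TXNRD1 and SRXN1. The choice was made with earlier results of these data known. All 9 were matched by Ensembl identifier and all 9 were expressed. They were measured in 26 single cell-derived cell lines (SCDCLs), each grown from 1 cell by limiting dilution and sequenced as 1 library of polyadenylated RNA, so that every SCDCL is 1 clone and has no replicate library. The labels put 12 libraries under BxPC3 and 14 under Panc-1, established lines of pancreatic ductal adenocarcinoma regarded as classical and as basal-like. All were grown in the same medium with serum. The labels name gemcitabine for every library, whereas the methods describe this drug only for separate viability assays, and the response of each SCDCL to gemcitabine was not analysed here.

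SMAD4, which codes for a TGF-beta signal transducer, divided the libraries differently from the labels. BxPC3 is known to lack SMAD4 and Panc-1 to express it, yet 5 libraries labelled BxPC3 and 7 labelled Panc-1 had SMAD4 below 1 TPM (the usual transcript abundance unit, one that corrects for transcript length and depth), from 0 to 0.044 TPM, and 7 and 7 had 28.1 to 52.2 TPM. The 12 libraries below 1 TPM are called SMAD4-low and the other 14 SMAD4-expressing. The epithelial cadherin CDH1 was at 90.8 to 198 TPM in the SMAD4-low libraries and at 0.338 to 7.74 TPM in the SMAD4-expressing ones, and the mesenchymal filament gene VIM was at 1.42 to 73.2 TPM and 3047 to 4526 TPM. The marker lists did not go one way. Their counts are to be read beside the share of all genes whose ranges did not overlap between the classes. It was 30.6% of 15569 genes with a mean of at least 1 TPM in either class. Of 6 epithelial markers 3 were higher in every SMAD4-low library, whereas the keratin genes KRT8 and KRT18 had medians 4.45 and 3.07 times higher in the SMAD4-expressing class. Of 4 mesenchymal markers 2 were higher in every SMAD4-expressing library, and FN1, which codes for fibronectin, was 24.6 times higher by median in the SMAD4-low class with no overlap. Since these classes come from measured RNA and not from a label, values are described between them with no test. LUM, a fibroblast marker, was at most 0.243 TPM and PTPRC, the general leukocyte marker, at most 0.535 TPM, while among the other fibroblast markers COL1A1 reached 38.5 TPM and PDGFRB 3.47 TPM. None of 5 fibroblast and none of 3 proliferation markers separated the classes, whereas 1 of 3 leukocyte markers (CD68, 5.27 to 26.9 TPM in the SMAD4-low and 42.5 to 141 TPM in the SMAD4-expressing libraries) and 2 of 3 endothelial markers (CDH5, up to 13.6 TPM, and VWF, up to 0.473 TPM, both higher in the SMAD4-low ones) did, and their part in the results was not tested. Libraries held 27035724 to 34945608 estimated counts, and libraries 21 and 26, both SMAD4-low, stood apart with the highest share of TPM in mitochondrial genes, 11.9% and 10.4%. In such bulk RNA, fewer cells expressing a gene and less RNA per cell cannot be told apart.

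NRF2, the product of NFE2L2, is the transcription factor that drives the cell's defence against oxidants and electrophiles. KEAP1 normally holds NRF2 in the cytoplasm and hands it to a CUL3 ubiquitin ligase for degradation, until oxidants or electrophiles modify KEAP1 and NRF2 accumulates in the nucleus. There it pairs with small MAF proteins on antioxidant response elements and raises genes for cystine import, glutathione synthesis, thioredoxin recycling, quinone reduction and heme breakdown, while BACH1 competes for the same elements as a repressor. Much of this control acts on the protein, so the RNA of NFE2L2 is not a measure of NRF2 activity.

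The antioxidant response element has the core TGACNNNGC, in which N is any base. It was searched on both strands in the bases before each RefSeq gene start (GRCh38.p14), in windows of 250 bases. No match in the 9 genes overlapped an AP-1 site of the form TGANTCA. Of the 9 genes, 7 had windows, 10 in all, and HMOX1 and SLC7A11 had none in the reference table. A match stood in 4 of the 10 windows, against 10.9% of 35116 windows of all genes. These belonged to GCLM, TXNRD1 and KEAP1, 3 of the 7 genes with windows. Bases farther upstream were not searched, so a gene without a match here may still hold the core elsewhere. The stretches before GCLM and TXNRD1 are printed because both genes had higher median TPM in the SMAD4-expressing libraries, with the match in capitals. KEAP1, whose matches are not printed, had a lower median there (52.5 against 60.6 TPM). A link between a match and the level of a gene was not tested. That of GCLM lies on the opposite strand of the gene, 34 to 26 bases before its start, and that of TXNRD1 on the gene's own strand, 99 to 91 bases before its first start.
GCLM, chr1:93909456-93909680, minus strand: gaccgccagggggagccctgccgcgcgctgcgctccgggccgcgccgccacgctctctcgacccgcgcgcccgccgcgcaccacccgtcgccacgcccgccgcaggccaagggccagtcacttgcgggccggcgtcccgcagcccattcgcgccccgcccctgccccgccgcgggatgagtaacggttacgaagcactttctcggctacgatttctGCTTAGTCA
TXNRD1, chr12:104215529-104215778, plus strand: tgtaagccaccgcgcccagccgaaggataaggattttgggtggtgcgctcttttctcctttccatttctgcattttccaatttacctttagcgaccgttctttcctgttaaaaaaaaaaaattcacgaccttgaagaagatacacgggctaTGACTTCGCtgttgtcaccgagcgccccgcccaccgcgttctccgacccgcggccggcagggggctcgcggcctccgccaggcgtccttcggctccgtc
A further TXNRD1 window, before a start inside the gene, held a match 102 to 94 bases upstream. In KEAP1, 1 of its windows, also before a start inside the gene, held a pair of matches. They began 54 and 31 bases before that start. A match is a string of letters and not a measured binding site.

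NFE2L2 and KEAP1 themselves hardly separated the classes. NFE2L2 (chromosome 2, 177218667 to 177392756, minus strand, GRCh38 as in GENCODE) was at 81.1 TPM in the lowest, 109 in the median and 125 in the highest SMAD4-low library, and at 89.8, 108 and 128 TPM in the SMAD4-expressing ones. The ranges overlapped almost wholly, and 1.95% of the variance of log2(TPM + 1) over the 26 libraries lay between the classes. In 98.5% of 15569 genes with a mean of at least 1 TPM in either class, the medians lay at least as far apart. NFE2L2 shares 3509 exon bases with HNRNPA3 on the opposite strand, which had a median of 426 TPM. Whether kallisto used the strand is not given in the sources used here, so reads of these overlapping exons may not have been told apart.

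KEAP1 (chromosome 19, 10486125 to 10503558, minus strand), the sensor that marks NRF2 for degradation, was at 37.6 to 73.1 TPM with a median of 60.6 in the SMAD4-low libraries. In the SMAD4-expressing libraries it was at 45.8 to 65.0 TPM with a median of 52.5, so the ranges overlapped. Its lowest value was that of library 26, and 11.9% of its variance lay between the classes.

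The targets, in contrast, divided in both directions. Of the 9 genes, 3 had ranges of TPM that did not overlap between the classes, where 30.6% of the 15569 genes did not overlap. HMOX1 and TXNRD1 were higher in every SMAD4-expressing library, a direction taken by 15.6% of all genes, and SLC7A11 was higher in every SMAD4-low library, a direction taken by 15.1%. The same 3 genes had medians at least 2-fold apart, against 40.9% of all genes. The share of members was therefore near that of all genes by the first measure and not above it by the second. The median absolute log2 ratio of medians was 0.66 over the 9 members and 0.75 over all genes.

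**Figure D1:**
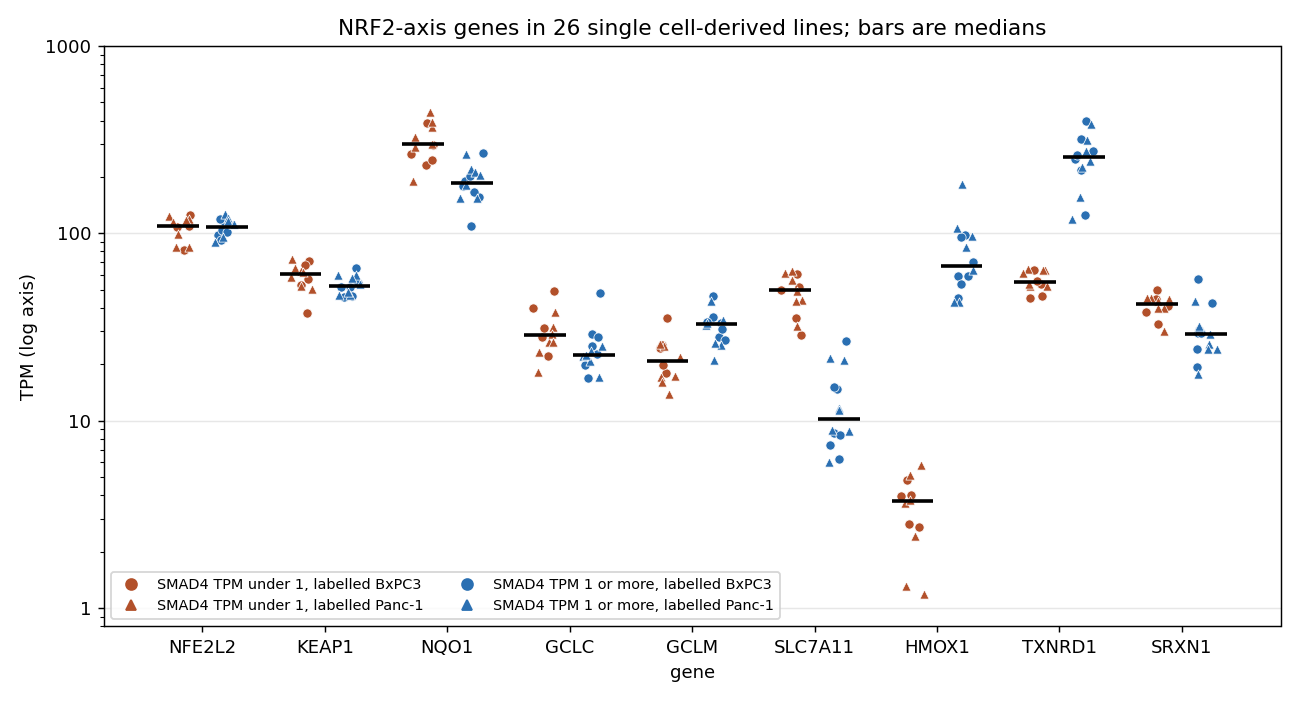
TPM (log axis) of the 9 NRF2-axis genes in each of 26 libraries, coloured by SMAD4 class and shaped by label, with a bar at the median of each class. HMOX1 (1.19 to 5.78 against 42.8 to 184 TPM), TXNRD1 and SLC7A11 separate without overlap, HMOX1 and TXNRD1 upward and SLC7A11 downward in the SMAD4-expressing class, and circles and triangles lie together within each class.

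HMOX1 (chromosome 22, 35380361 to 35394214, plus strand) codes for heme oxygenase 1, which breaks heme down to biliverdin, iron and carbon monoxide. It was at 1.19 TPM in the lowest, 3.71 in the median and 5.78 in the highest SMAD4-low library. The SMAD4-expressing libraries began at 42.8 TPM, had a median of 67.1 and reached 184 TPM in library 9. The median was 18.1 times higher in the SMAD4-expressing class, and 93.6% of the variance lay between the classes, more than for any other member. Only 7.88% of the 15569 genes had medians as far apart. The SMAD4-low values rest on few reads, from 41.3 estimated counts in library 3. Kallisto's 30 re-estimates of each library spread by a coefficient of variation with a median of 9.12% over the SMAD4-low libraries. It was 18.6% in library 3, and between the 12 libraries it was 41.3%. Library 9 also had the lowest share of mitochondrial TPM, 1.37%, and the part of this in its HMOX1 level was not tested.

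TXNRD1 (chromosome 12, 104215779 to 104350307, plus strand) codes for the cytosolic thioredoxin reductase, which uses NADPH to recharge thioredoxin. In the SMAD4-low libraries it kept to a narrow range of 45.1 to 64.5 TPM with a median of 54.8. Among the SMAD4-expressing libraries it ran from 119 TPM in library 13 to 399 TPM in library 22, with a median of 256. The median was 4.66 times higher in this class, and TXNRD1 also varied more within it, with a coefficient of variation of 33.1% against 12.3%. Both exceeded the spread of the re-estimates, whose median was 0.875% in the SMAD4-expressing and 1.93% in the SMAD4-low libraries.

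SLC7A11 (chromosome 4, 138164097 to 138242349, minus strand) codes for the light chain of the cystine-glutamate antiporter, which supplies cysteine for glutathione. It went the other way, with 28.7 to 63.3 TPM and a median of 49.7 in the SMAD4-low libraries. In the SMAD4-expressing libraries it was at 6.04 to 26.6 TPM with a median of 10.2, so that the lowest SMAD4-low library, number 21, stood just above library 18. The median was 4.88 times higher in the SMAD4-low class. Most SMAD4-expressing libraries lay below 16 TPM, and libraries 9, 14 and 18 were at 21.2, 21.7 and 26.6 TPM, so the coefficient of variation was 50.9% in this class and 24.1% in the other.

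The remaining 4 targets overlapped. NQO1 (chromosome 16, 69706996 to 69726668, minus strand), a quinone reductase that is a usual reporter of NRF2, was at 190 to 446 TPM with a median of 298 in the SMAD4-low libraries and at 109 to 268 TPM with a median of 186 in the SMAD4-expressing ones. Its median was 1.60 times higher in the SMAD4-low class. GCLM (chromosome 1, 93885199 to 93909456, minus strand), the modifier subunit of glutamate-cysteine ligase, which makes the first committed step to glutathione, was at 13.9 to 35.5 TPM with a median of 20.8 against 21.2 to 46.3 TPM with a median of 32.9. Its median was 1.58 times higher in the SMAD4-expressing class.

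GCLC (chromosome 6, 53497341 to 53616970, minus strand), the catalytic subunit of the same enzyme, leaned the other way from its partner. It was at 18.1 to 49.5 TPM with a median of 28.5 in the SMAD4-low libraries, and at 16.9 to 48.2 TPM with a median of 22.6 in the SMAD4-expressing ones. The highest library of each class was 25 and 22. SRXN1 (chromosome 20, 646615 to 653200, minus strand), the sulfiredoxin that reactivates overoxidised peroxiredoxins, was at 30.1 to 49.9 TPM with a median of 42.2 and at 17.7 to 57.3 TPM with a median of 29.1. Its coefficient of variation was 13.6% in the SMAD4-low and 34.6% in the SMAD4-expressing class. SRXN1 shares 2292 exon bases on the same strand with a gene of the identifier ENSG00000270299, which had at most 0.685 TPM. Other targets share exon bases with noncoding genes for which no level was given. On the opposite strand these were 865 bases for SLC7A11, 575 for NQO1 and 305 for GCLC, and on the same strand 529 for GCLC. Reads of these bases may not have been told apart either.

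The order of the levels also differed. In the SMAD4-low class the order by median TPM was NQO1, NFE2L2, KEAP1, TXNRD1, SLC7A11, SRXN1, GCLC, GCLM and HMOX1. NQO1 was above NFE2L2, NFE2L2 above KEAP1 and GCLM above HMOX1 with no overlap of their ranges, whereas KEAP1 exceeded TXNRD1, and SLC7A11 exceeded SRXN1, in only 8 of 12 libraries. In the SMAD4-expressing class TXNRD1 came first, followed by NQO1, NFE2L2, HMOX1, KEAP1, GCLM, SRXN1, GCLC and SLC7A11, and all neighbours overlapped. TXNRD1 exceeded NQO1 in 10 of 14 libraries, and HMOX1 exceeded KEAP1 in 10 of 14. HMOX1 was thus the lowest member in one class and the fourth in the other.

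The comparison that the labels allow is that of libraries labelled Panc-1 with those labelled BxPC3, a comparison of label groups that need not be one of the lines, since SMAD4, VIM and CDH1 divided the libraries across the labels and the labels may not give each library's line. None of the 9 members passed edgeR's quasi-likelihood test with Benjamini-Hochberg adjustment over 16008 genes, in which 0% of all genes passed. No member reached an unadjusted p under 0.05, which 367 of all genes did, and DESeq2 called 2 genes and limma 0, no member among them. The log2 fold changes (Panc-1 minus BxPC3) ran from -0.25 for GCLC (95% interval -0.56 to 0.060) to 0.31 for SLC7A11 (-0.57 to 1.19). For HMOX1 it was 0.18, with an interval of -1.43 to 1.80. For SLC7A11 the value moved to 0.12 with the SMAD4 class as a covariate, to 0.21 among the SMAD4-low and to 0.045 among the SMAD4-expressing libraries. The absence of a call does not show that the members were alike between BxPC3 and Panc-1, since each label held libraries of both SMAD4 classes. These tests take the SCDCLs as replicates of a label, and their spread is that between clones.

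**Figure D2:**
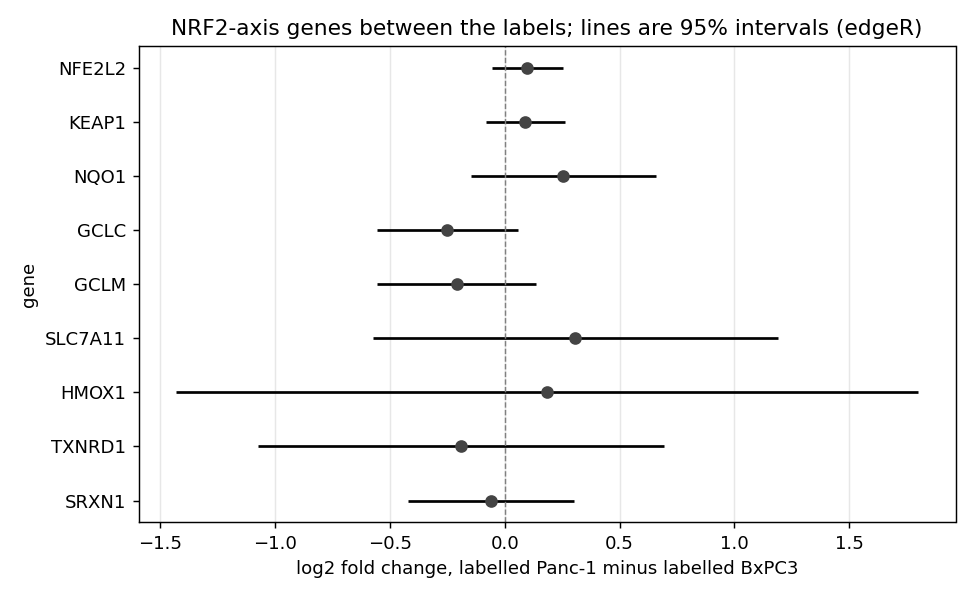
Log2 fold change of each of the 9 genes between the libraries labelled Panc-1 (n = 14) and BxPC3 (n = 12), from edgeR, with its 95% interval. Every interval includes 0, and those of HMOX1, TXNRD1 and SLC7A11 are the widest.

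The members that separated the classes did so under each label. HMOX1 had a median of 3.95 TPM in the SMAD4-low libraries labelled BxPC3 (n = 5) and 3.65 TPM in those labelled Panc-1 (n = 7), and 59.2 and 84.3 TPM in the SMAD4-expressing ones (n = 7 each). TXNRD1 had medians of 53.5 and 61.0 TPM, and of 261 and 244 TPM, in the same order. SLC7A11 had medians of 49.9 and 49.5 TPM, and of 8.56 and 11.4 TPM. For each of these genes the ranges of both labels overlapped within a class. A term for the difference of the label effect between the classes passed for none of 17456 genes with edgeR, with adjusted p from 0.815 for HMOX1 to 0.999 for NFE2L2 among the members.

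A second question is whether the members varied together among clones of a class. Each of the 36 pairs was correlated in each class on log2(TPM + 1), with two-sided permutation p-values adjusted over the 72 relations. Correlations were positive in 27 of 36 pairs in the SMAD4-low class (75.0%, against 60.1% of all gene pairs) and in 30 of 36 in the SMAD4-expressing class (83.3% against 53.6%). The median r was 0.306 and 0.258, where that of all gene pairs was 0.109 and 0.0313. Of these pairs 6 and 11 had an unadjusted p under 0.05, and 1 and 2 passed after adjustment. A correlation as strong as the weakest that passed was held by 0.686% and 0.459% of all gene pairs of the class.

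Among the 12 SMAD4-low libraries SLC7A11 and TXNRD1 varied together (r = 0.84, permutation adjusted p = 0.0353, Spearman's rho = 0.88, adjusted p = 0.0216), although their class differences went in opposite directions. Libraries 1, 2, 7 and 16 were high for both, at 56.1 to 63.3 TPM of SLC7A11 and 63.6 to 64.5 TPM of TXNRD1, and libraries 21 and 26 were low for both. Without the 2 libraries farthest from the median of SLC7A11, r was 0.84 with an adjusted permutation p of 0.0958. Without libraries 21 and 26, which had the highest mitochondrial share, r was 0.71 (adjusted p = 0.194). The call was also lost without library 2, 16 or 21 of the same class alone (r = 0.82, 0.82 and 0.78), but not without library 26, and in TMM-scaled CPM, counts relative to the library total, r was 0.76 (adjusted p = 0.0616). With mitochondrial genes left out of TPM, r was 0.81 (adjusted p = 0.0487). In these 12 libraries SLC7A11 and TXNRD1 both fell as the mitochondrial share rose (r = -0.56 and -0.66). Both also fell with the share of TPM in the 10 most abundant genes (r = -0.71 and -0.70). The part of these shares in the correlation of the pair was not tested.

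In the 14 SMAD4-expressing libraries GCLM and TXNRD1 varied together (r = 0.78, permutation adjusted p = 0.0353, rho = 0.82, adjusted p = 0.0216), from 21.2 and 119 TPM in library 13 to 46.3 and 399 TPM in library 22. GCLC and SRXN1 also did (r = 0.77, adjusted p = 0.0353, rho = 0.68, adjusted p = 0.239), with library 22 far above the rest at 48.2 TPM of GCLC and 57.3 TPM of SRXN1. Without the 2 libraries farthest from the median of the first gene, r was 0.60 for each pair with an adjusted permutation p of 0.327, so neither call holds without them. Without library 22 alone, r of GCLC and SRXN1 was 0.59 (adjusted p = 0.223), and that of GCLM and TXNRD1 was 0.74 (adjusted p = 0.0686), while GCLM and HMOX1 (r = 0.82, adjusted p = 0.0295) and HMOX1 and TXNRD1 (r = 0.76, adjusted p = 0.0454) then passed. The pairs that passed in one class were not tested for a difference from the other class. For GCLM and TXNRD1 r was 0.06 in the SMAD4-low libraries, and for SLC7A11 and TXNRD1 it was 0.45 in the SMAD4-expressing ones. NFE2L2 with KEAP1 had r = 0.71 in the SMAD4-low libraries (adjusted p = 0.106) and 0.22 in the SMAD4-expressing ones. Against the proliferation marker TOP2A, r in the SMAD4-expressing libraries was 0.73 for GCLM, 0.64 for TXNRD1, 0.43 for GCLC and 0.27 for SRXN1. Against the marker MKI67 it was 0.54, 0.46, 0.55 and 0.26. For NFE2L2 and KEAP1 in the SMAD4-low libraries, r was 0.77 and 0.80 with TOP2A, and -0.80 and -0.62 with the mitochondrial share. The part of these measures in the correlations of the pairs was not tested.

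**Figure D3:**
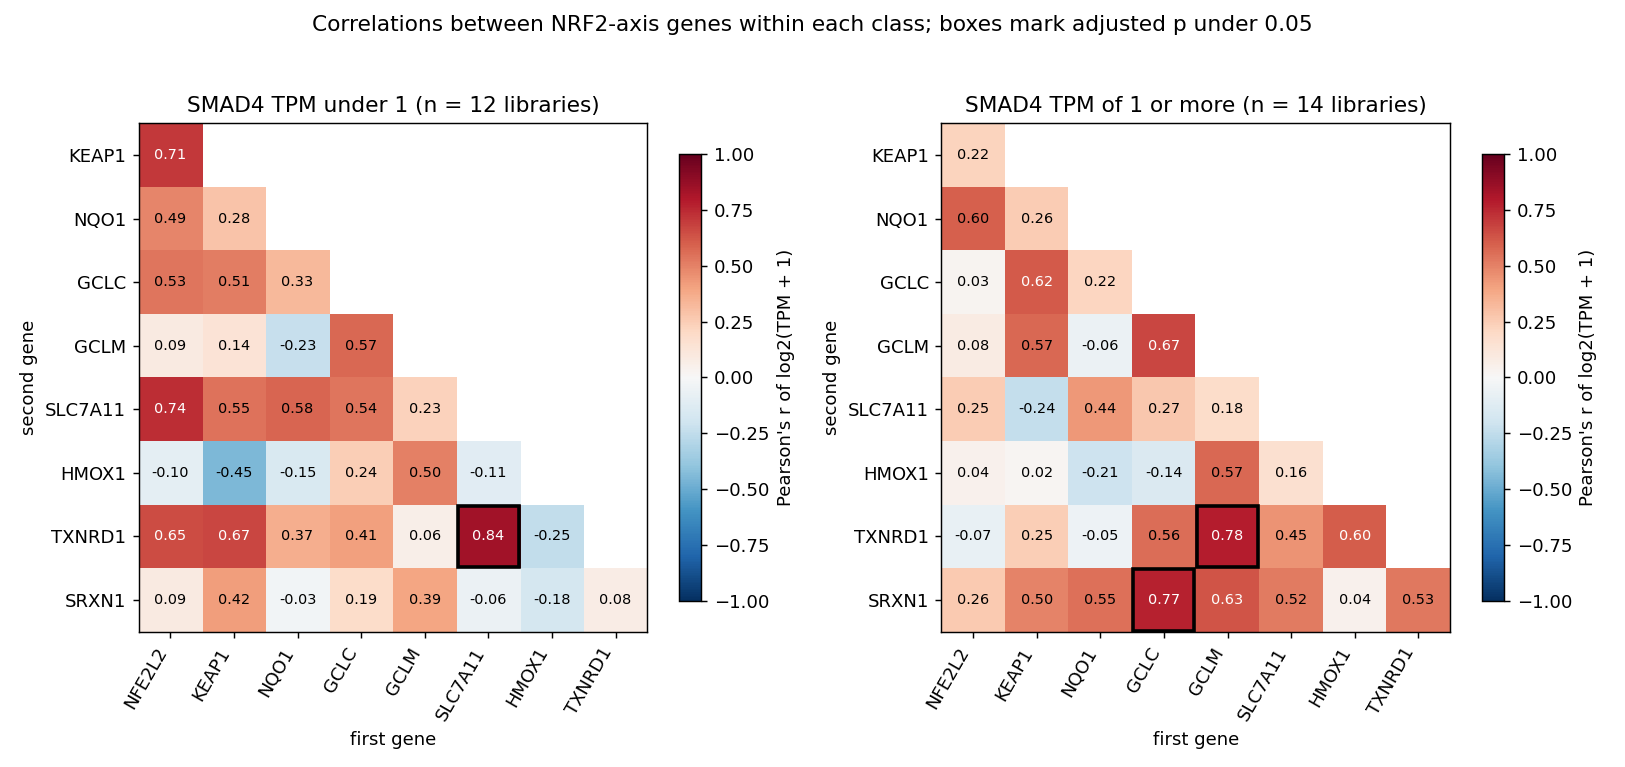
Pearson's r of log2(TPM + 1) for the 36 pairs of the 9 genes, at left in the 12 SMAD4-low and at right in the 14 SMAD4-expressing libraries, from blue (-1) to red (1). The 3 boxed pairs had an adjusted permutation p under 0.05, and 9 and 6 pairs were negative, 6 of the 9 and 2 of the 6 with HMOX1.

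**Figure D4:**
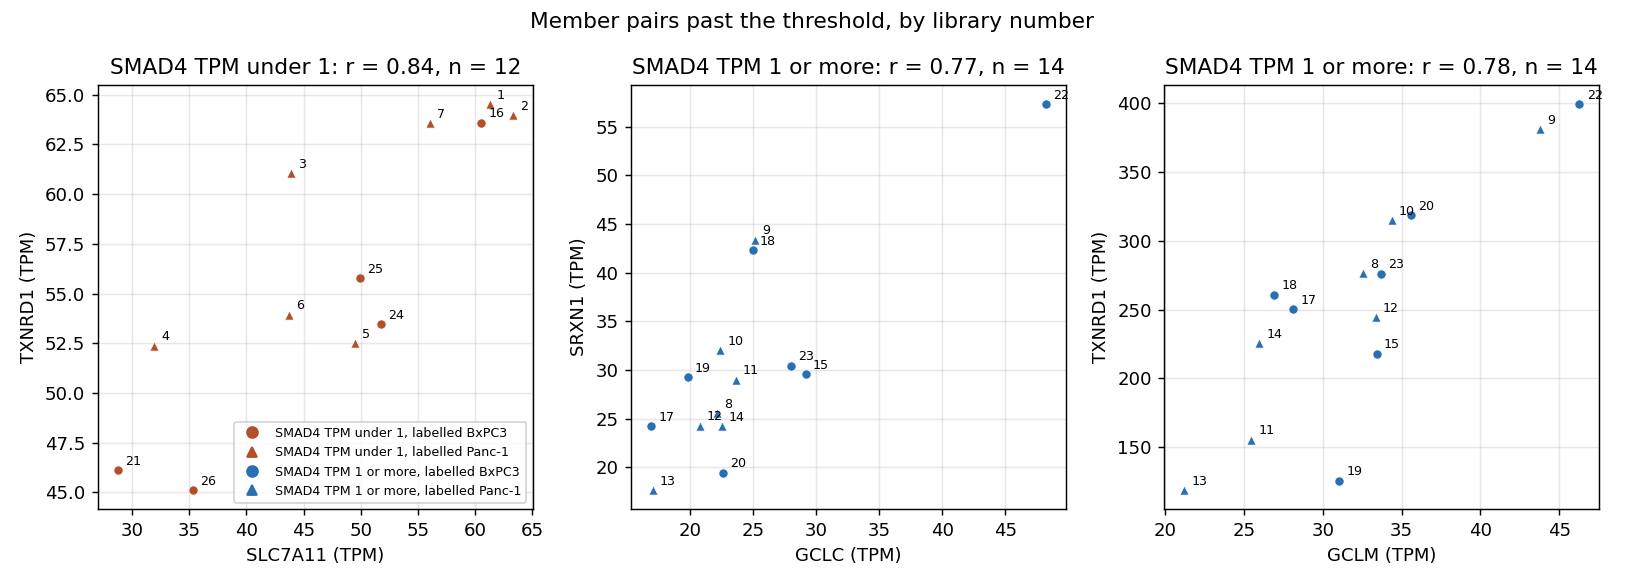
TPM of the pairs that passed, 1 point for each library with its number, for SLC7A11 and TXNRD1 in the SMAD4-low class and for GCLC and SRXN1 and GCLM and TXNRD1 in the SMAD4-expressing class. Libraries 21 and 26 lie lowest at left, and library 22 lies at the upper right of both other panels.

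The genes whose course within the classes was most like that of each member were sought by correlation. The search covered 7945 genes with a mean of at least 10 TPM in both classes. Genes were ranked by the mean of the correlations within the 12 and the 14 libraries. KEAP1 had the closest, DUT (mean r = 0.88), MCM6 (0.86) and CUL3 (0.84), of which CUL3 codes for the scaffold of the ligase that KEAP1 serves. For SLC7A11 these were RSL24D1 (0.79), YARS1 (0.79) and CEBPG (0.78), and for HMOX1 they were FTH1, the ferritin heavy chain (0.72), SLC3A2, which codes for the partner chain of SLC7A11 (0.71), and MX2 (0.68). GCLM was followed by PSMA1 (0.79), NUP88 (0.71) and PSMD14 (0.68), GCLC by YTHDF2 (0.78), FAF1 (0.76) and NUP153 (0.75), and TXNRD1 by SERBP1 (0.76), NAP1L4 (0.74) and MPHOSPH9 (0.74). NQO1 had ACTR2 (0.77), CCNI (0.76) and TLE5 (0.74), NFE2L2 had CA5BP1 (0.77), SH3BGRL (0.76) and TPRG1L (0.76), and SRXN1 had ENSG00000260914 (0.75), RBM8A (0.75) and PQBP1 (0.73). No member was among the closest genes of another. HMOX1 could not be, since its mean of 3.46 TPM in the SMAD4-low class kept it out of the genes searched. These are the highest of many correlations over few libraries and are given as a description. They leave out the difference between the classes, in which a gene could go the other way. SLC3A2 was higher in every SMAD4-low library (medians 676 and 313 TPM) and FTH1 had medians of 2835 and 2115 TPM, opposite to HMOX1. CUL3 was higher in every SMAD4-expressing library, opposite to the median of KEAP1. For most genes named here, class levels were not described.

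The wider redox machinery was described with 8 lists of 118 genes, of which 113 reached a mean of 1 TPM in either class. In 17 of the 113 every SMAD4-expressing library was higher, in 23 every SMAD4-low library was higher, and 73 overlapped, where 15.6% and 15.1% of all genes took these directions. Among 11 regulators, BACH1, the repressor that competes with NRF2 and is known to silence HMOX1, had a median of 27.5 TPM in the SMAD4-low and 7.37 TPM in the SMAD4-expressing libraries, 3.73 times higher in the former. The kinase gene GSK3B, whose product primes NRF2 for degradation, was at 34.6 and 9.68 TPM. MAFK, a small MAF partner, was at 44.5 and 77.4 TPM, and CUL3 was at 64.8 and 97.6 TPM. The other 7 regulators overlapped.

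Of 22 glutathione genes tested, 7 were higher in every SMAD4-low library and 2 in every SMAD4-expressing one. Of all genes, 15.1% and 15.6% took these directions. GPX2, the gastrointestinal glutathione peroxidase, was at 35.0 to 93.6 TPM in the SMAD4-low libraries and at 0 to 0.427 TPM in the others. The microsomal glutathione transferases MGST1 and MGST2 had medians of 342 and 137 TPM against 4.53 and 17.3 TPM. GSTM3, a cytosolic glutathione transferase with close paralogs that can share its reads, was 2.62 times higher in the SMAD4-expressing class, at a median of 58.5 TPM.

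The thioredoxin genes were mixed, with 4 of 17 higher in every SMAD4-expressing library and 5 in every SMAD4-low one. The shares of all genes in these directions were 15.6% and 15.1%. TXN, the thioredoxin that TXNRD1 reduces, had a median of 1226 TPM in the SMAD4-low libraries and 508 TPM in the SMAD4-expressing ones, opposite to TXNRD1. TXNIP, the inhibitor of thioredoxin, was at 33.8 to 154 TPM against 0.517 to 7.40 TPM, and the peroxiredoxin PRDX2 had medians of 213 and 75.6 TPM. Higher in the SMAD4-expressing libraries were PRDX5, a peroxiredoxin (medians 247 and 666 TPM), SESN2, a stress-induced sestrin (2.89 and 6.59 TPM), and TXNL1, a thioredoxin-like protein (42.0 and 83.5 TPM).

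Wide gaps stood among the genes of carbonyl and quinone detoxification. Of the 22 genes tested, 7 were higher in every SMAD4-low library and 3 in every SMAD4-expressing one, against 15.1% and 15.6% of all genes. ALDH3A1, an aldehyde dehydrogenase, was at 161 to 982 TPM in the SMAD4-low libraries and at 0 to 0.101 TPM in the others. The aldo-keto reductases AKR1C1 and AKR1C3 were at 62.1 to 252 TPM and 31.0 to 114 TPM against at most 0.338 and 0.278 TPM, with the limit that these close paralogs can share reads. ABCC1, an exporter of glutathione conjugates, had medians of 17.6 TPM in the SMAD4-low and 60.9 TPM in the SMAD4-expressing libraries. UGDH, which makes UDP-glucuronate, had 33.2 and 106 TPM, and the quinone reductase NQO2 had 24.0 and 56.5 TPM, in the direction opposite to the median of NQO1.

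**Figure D5:**
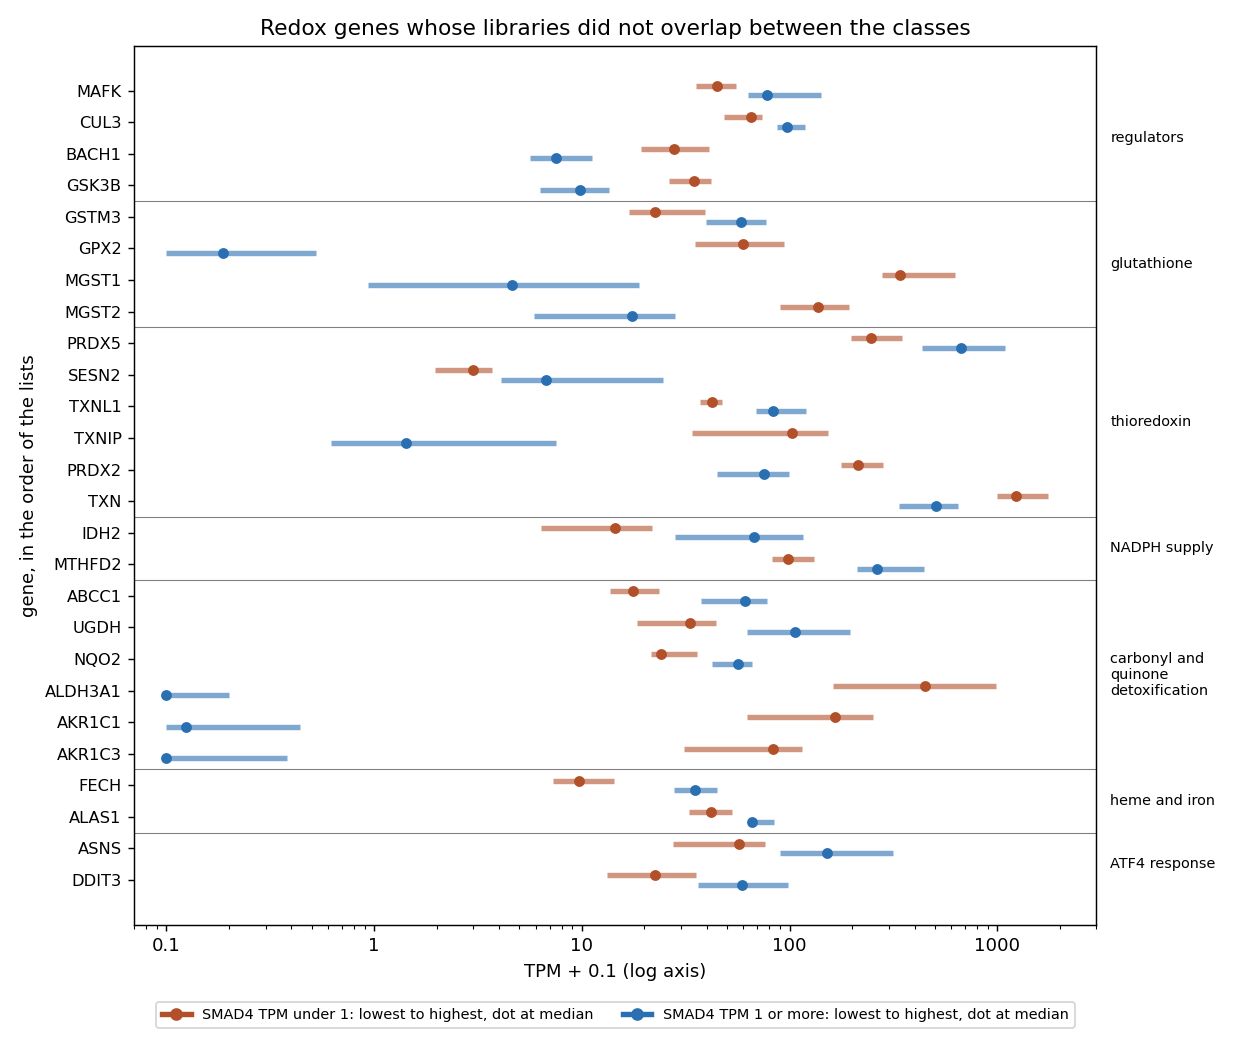
Lowest, median and highest TPM (log axis, 0.1 added) of 26 named redox genes in the 12 SMAD4-low and the 14 SMAD4-expressing libraries, grouped by list. ALDH3A1, AKR1C1, AKR1C3 and GPX2 are at or near 0 in the SMAD4-expressing class, and the ranges of every gene shown are apart because that chose them.

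In heme and iron handling, to which HMOX1 belongs, 8 of 11 genes overlapped between the classes, and 10 of 12 that supply NADPH did, where 30.6% of all genes did not overlap. FECH, which closes heme synthesis, had medians of 9.56 and 35.0 TPM, and ALAS1, which opens it, had 41.6 and 65.9 TPM, so both lay higher in the SMAD4-expressing libraries like HMOX1. SLC40A1, the iron exporter, was the single heme and iron gene of 11 in the other direction, at 1.06 to 3.05 TPM against at most 0.108 TPM. Of 12 NADPH genes, the mitochondrial dehydrogenases IDH2 (14.4 and 67.5 TPM) and MTHFD2 (98.2 and 264 TPM) were higher in every SMAD4-expressing library. Of 11 genes of the ATF4 stress response, which also drives SLC7A11, ASNS (56.8 and 152 TPM) and DDIT3 (22.4 and 58.8 TPM) were higher in every SMAD4-expressing library and 9 overlapped. Of all genes, 15.6% were higher in every SMAD4-expressing library, a share near that of this list. ATF4 itself had medians of 236 and 223 TPM. Of 7 superoxide and peroxide enzymes tested, only DUOX2 was apart, at 0.150 to 25.9 TPM in the SMAD4-low and at most 0.0421 TPM in the SMAD4-expressing libraries. Among the 26 named genes, 22 had promoter windows, and the core of the antioxidant response element stood in 3 of their 32 windows, those of FECH, GPX2 and TXNL1, which is 9.38% against 10.9% of the windows of all genes.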

How the data were processed

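RNA from 26 SCDCLs was sequenced once each. Per the methods and labels, the authors quantified reads with kallisto v0.46.1 against the Ensembl GRCh38 transcriptome, summarised them to genes with tximport, and deposited TPM, estimated counts made from TPM and transcript length, and 30 re-estimates of the counts of each library. TPM, which corrects for transcript length and depth, was used as deposited for levels. Estimated counts were rounded for edgeR 4.0.16, DESeq2 1.42.0 and limma 3.58.1 in R 4.3.3. Positions came from GENCODE and sequences from RefSeq.

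Groups were taken from the labels, and SMAD4 TPM below 1 or not defined the classes. Members and gene lists were chosen with earlier results of these data known. Between labels, edgeR's quasi-likelihood test used TMM factors and filterByExpr, with an adjusted p under 0.05. Between classes, ranges and medians were described with no test. Within classes, Pearson's r and Spearman's rho of log2(TPM + 1) had 100000 permutations (Python 3.11.15, numpy 2.4.6), with Benjamini-Hochberg adjustment over 72 relations. Pathway genes named were up to 3 per list and direction whose ranges did not overlap, with a median of at least 5 TPM in the higher class and the largest ratio of medians (0.1 TPM added). SLC40A1 and DUOX2, outside that rule, were named after their values were seen. Alternatives were other scaling, units, filters (at least 50 counts in every library labelled BxPC3), tests, pseudocounts of 0.1 and 5, a SMAD4 threshold of 10 TPM and leaving out libraries. Leaving out mitochondrial genes or libraries 21 and 26 was chosen after seeing the data. The correlation and permutation steps and edgeR's test between labels were tested on simulated data. Precision was read from kallisto's re-estimates, which cover counting and assignment error only. For GCLC their coefficient of variation reached 17.5% in library 4, 15.3% in library 7 and 13.3% in library 23. Deposited counts, which are scaled by transcript length, could lie outside the re-estimates. For GCLM in library 16, its highest in the SMAD4-low class, the count was 1688 and the mean re-estimate 1219 (SD 33.7). No pair of libraries of a class had counts within sampling noise of each other.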

Additional observations from a re-analysis of the deposited data

Results flagged for a closer look

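Each member was examined in each label within each SMAD4 class, 36 groups of 5 or 7 libraries, for a library whose gap to its nearest neighbour was too wide for the range of its group by Dixon's criterion. Chance flags about 1 in 20 such groups, and 2 were flagged. GCLC was at 48.2 TPM in library 22, labelled BxPC3 and SMAD4-expressing, where the other libraries of its group (n = 7 in all) were at 16.9 to 29.2 TPM. The same library had the highest GCLM (46.3 TPM), TXNRD1 (399 TPM) and SRXN1 (57.3 TPM) of its class. SRXN1 was at 30.1 TPM in library 1, labelled Panc-1 and SMAD4-low, where the others (n = 7 in all) were at 39.8 to 45.2 TPM. Library 1 was not low for SLC7A11 (61.3 TPM) or TXNRD1 (64.5 TPM).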

How the results depend on the processing

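The 3 members that did not overlap between the SMAD4 classes, and the 3 at least 2-fold apart, were HMOX1, TXNRD1 and SLC7A11 under every unit, threshold and omission of a library that was tried. No member passed between the labels under any alternative. Directions without a call were less stable, and the cause was not tested. The label fold change (log2, Panc-1 minus BxPC3) of HMOX1 was -0.28 with limma and -0.098 among the SMAD4-low libraries alone, that of TXNRD1 was 0.041 with the SMAD4 class as a covariate and 0.21 among the SMAD4-low libraries, and that of SRXN1 was 0.035 among those libraries. Omitting single libraries gave -0.24 to 0.39 for HMOX1 (negative without library 9) and -0.12 to 0.017 for SRXN1 (positive without library 22), and 0.19 to 0.48 for SLC7A11. The log2 ratio of class medians of NFE2L2, -0.015, was 0.043 in TMM-scaled CPM, 0.053 in CPM on library totals, 0.044 as a ratio of means and -0.075 to 0.041 with each library left out.

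The correlation calls were fragile. Among the SMAD4-low libraries the number of pairs that passed, 1, was 0 in TMM-scaled CPM, 0 without the 2 farthest libraries, 0 without libraries 21 and 26, and 0 to 2 with each library left out. Among the SMAD4-expressing libraries the number, 2, was 1 with Spearman's rho, 0 without the 2 farthest libraries and 0 to 2 with each library left out. Since p was adjusted over both classes together, no pair of either class passed without library 2, 8, 9, 11, 12, 13, 16 or 21. No paired analysis was possible because the labels share no replicate numbers between the groups. The low counts of HMOX1 in the SMAD4-low class limit what can be said of its variation there.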
